A study of Homo sapiens with 6 samples.

Results

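A set of 10 genes that encode inflammatory cytokines and the adhesion molecule ICAM1 were followed across BT474 breast cancer cells that carried an empty vector or a variant of the long noncoding RNA NR2F1-AS1. The genes were TNF, IL1A, IL1B, IL6, IL11, LIF, CSF1, CSF3, IL32 and ICAM1. Every probe whose gene name in the array files was 1 of these 10 was taken, which gave 16 of the 58201 probes of the array, and each probe was kept apart. BT474 is an established ER-positive and HER2-positive cell line, and all cultures were kept in RPMI-1640 with 10% FBS. Control cells (MOCK in the labels) carried empty pcDNA3.1, BT474-Var1 cells carried the long variant 1 and BT474-Var4 cells the short variant 4, with 2 arrays per group and no other difference in treatment given. According to the methods, variant 4 was cloned in a plasmid that also encodes eGFP and variant 1 in one with hygromycin resistance, both empty plasmids served as controls, and which of them the Control arrays represent is not stated. BT474-Var1 and BT474-Var4 cells were populations that grew out of few surviving cells after transfection, so each is 1 selected population rather than a series of independent clones. Nothing says that arrays A and B came from separate cultures, so the p-values measure the spread between these samples, which may be technical.

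TNF and the interleukin-1 cytokines are early signals of inflammation, which bind receptors on target cells and activate the transcription factor NF-kB through IKK. IL6, IL11 and LIF are cytokines of a different family, which share the receptor chain IL6ST (gp130) and signal through JAK kinases and STAT3. CSF1 and CSF3 are growth factors of macrophages and neutrophils, IL32 is a cytokine made by lymphocytes and epithelial cells, and ICAM1 is the cell surface ligand of the leukocyte integrins LFA-1 (ITGAL with ITGB2) and Mac-1 (ITGAM with ITGB2). NF-kB is a well-known activator of TNF, IL6 and ICAM1 in many cell types, while its inhibitors NFKBIA and TNFAIP3 are NF-kB targets that dampen the same pathway.

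The stretches of 250 bases before the start sites are shown for TNF, IL6 and ICAM1, the members that passed the test below, and for IL32, which holds the same NF-kB letters and did not pass it. They are RefSeq promoter windows on GRCh38.p14, all on the plus strand, at chr6:31575315-31575564 (TNF), chr7:22726950-22727199 (IL6), chr19:10270870-10271119 (ICAM1) and chr16:3065153-3065402 (the upstream of 2 windows of IL32). Capitals mark matches, on either strand, to the letters GGAAANTCC for NF-kB, TGACTCA for AP-1, TTGCNNAA for C/EBP, TTCNNNGAA for STAT factors and TATAAA for the box of the same name, and no marked matches overlapped in these 4 windows. The motifs were chosen after the values were seen.
TNF: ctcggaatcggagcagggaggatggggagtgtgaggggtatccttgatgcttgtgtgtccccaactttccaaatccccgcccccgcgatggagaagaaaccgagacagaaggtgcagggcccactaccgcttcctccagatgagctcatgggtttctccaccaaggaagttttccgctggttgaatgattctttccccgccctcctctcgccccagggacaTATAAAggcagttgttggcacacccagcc
IL6: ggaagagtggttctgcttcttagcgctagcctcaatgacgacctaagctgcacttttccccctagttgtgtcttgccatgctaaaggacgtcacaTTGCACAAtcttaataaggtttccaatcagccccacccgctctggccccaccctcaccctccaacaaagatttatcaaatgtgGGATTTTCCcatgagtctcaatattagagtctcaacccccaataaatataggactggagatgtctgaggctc
ICAM1: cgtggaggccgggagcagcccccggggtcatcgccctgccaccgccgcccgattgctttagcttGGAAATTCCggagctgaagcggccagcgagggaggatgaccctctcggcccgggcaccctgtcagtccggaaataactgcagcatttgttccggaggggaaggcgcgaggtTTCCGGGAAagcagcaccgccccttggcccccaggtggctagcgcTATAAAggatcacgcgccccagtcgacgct
IL32: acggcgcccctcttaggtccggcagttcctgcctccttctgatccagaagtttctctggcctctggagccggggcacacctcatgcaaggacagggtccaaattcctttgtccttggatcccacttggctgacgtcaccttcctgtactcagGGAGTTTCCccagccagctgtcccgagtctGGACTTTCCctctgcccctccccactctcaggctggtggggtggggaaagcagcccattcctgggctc

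The NF-kB letters lay 72 to 64 bases before the start of IL6, 186 to 178 bases before that of ICAM1, and at 2 places, 98 to 90 and 68 to 60 bases, before the start of the upstream window of IL32. The TNF window held a TATAAA match at 29 to 24 bases and none to the other 4 motifs as written. IL6 also held the C/EBP letters and ICAM1 the letters of STAT factors and of the TATA box. Of 35116 human promoter windows of this length, 1.45% held the NF-kB letters, 4.20% AP-1, 9.05% C/EBP, 6.57% those of STAT factors and 10.7% those of the TATA box. Windows were found for 7 of the 10 members, 9 windows in all. The NF-kB letters were in 3 of the 9 (IL6, IL32 and ICAM1), the AP-1 letters and the TATA box letters in 3 each, and the C/EBP letters and those of STAT factors in 2 each. Of the windows with the AP-1 letters, 2 were of IL1A, which overlap and share a match, and the other was of IL11. The TATA box letters of IL1A lay 239 to 234 bases before its start. A match is a description of the letters, with no evidence here that a factor binds.

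RNA was hybridized to one-color Agilent arrays, and a level is the log2 of the processed intensity relative to the array's 75th percentile, so that negative values lie below that percentile. Between 47.7% and 57.5% of all probes were marked well above background per array, and replicates correlated across probes at r = 0.993 to 0.996. A probe entered the limma fit when both arrays of some group had it well above background, which left 31806 probes (24584 gene names), and it was called at an adjusted p under 0.05 over all of these. The 10 luminal epithelial markers tested as a check of the label, among them KRT8, KRT18, EPCAM, ESR1 and ERBB2, were well above background on all 6 arrays, with a summed level of 2090 to 2730 times the 75th percentile. Of 8 leukocyte markers, 3 (PTPRC, CD14 and ITGAM) were above background on all 6 arrays, MS4A1 on none, and LYZ and CD68 had no probe under these names, with a summed level of 1.55 to 1.76. The endothelial markers summed to 2.46 to 2.81 in Control and BT474-Var4 and to 1.79 to 1.92 in BT474-Var1 cells, with KDR at background on all 6 and VWF the brightest. All 6 arrays lay on 1 slide, the BT474-Var1 arrays in its column 2 and the other 4 in column 1. Slide column and BT474-Var1 thus cannot be told apart. BT474-Var4 and Control lay within 1 column. By slide row, the Control arrays lay in rows 1 and 2 and those of both transfected groups in rows 3 and 4. Slide row thus cannot be told apart from the difference of either transfected group from Control. In bulk RNA, fewer cells of a type and less RNA per cell cannot be told apart.

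Of the 16 member probes, 5 were well above background on all 6 arrays, those of IL11, IL32 (2 probes) and CSF1 (2 of 3 probes). Another 6 were above it on 1 to 5 arrays, the probes of TNF, ICAM1 and LIF and 1 probe each of IL6 and CSF3. The other 5, which included the only probes of IL1A and IL1B, were not above background on any array. With the filter, 9 probes of 7 members were tested. TNF and ICAM1 passed it only through the transfected groups, in which they were brighter than in Control, and IL6 only through BT474-Var4. ICAM1 was near background there, at mean intensities of 11.6 to 16.1. The dimmest spots well above background on those arrays had 5.43 to 9.4. CSF3 passed it only through BT474-Var1, the group where its probe was highest.

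**Figure D1:**
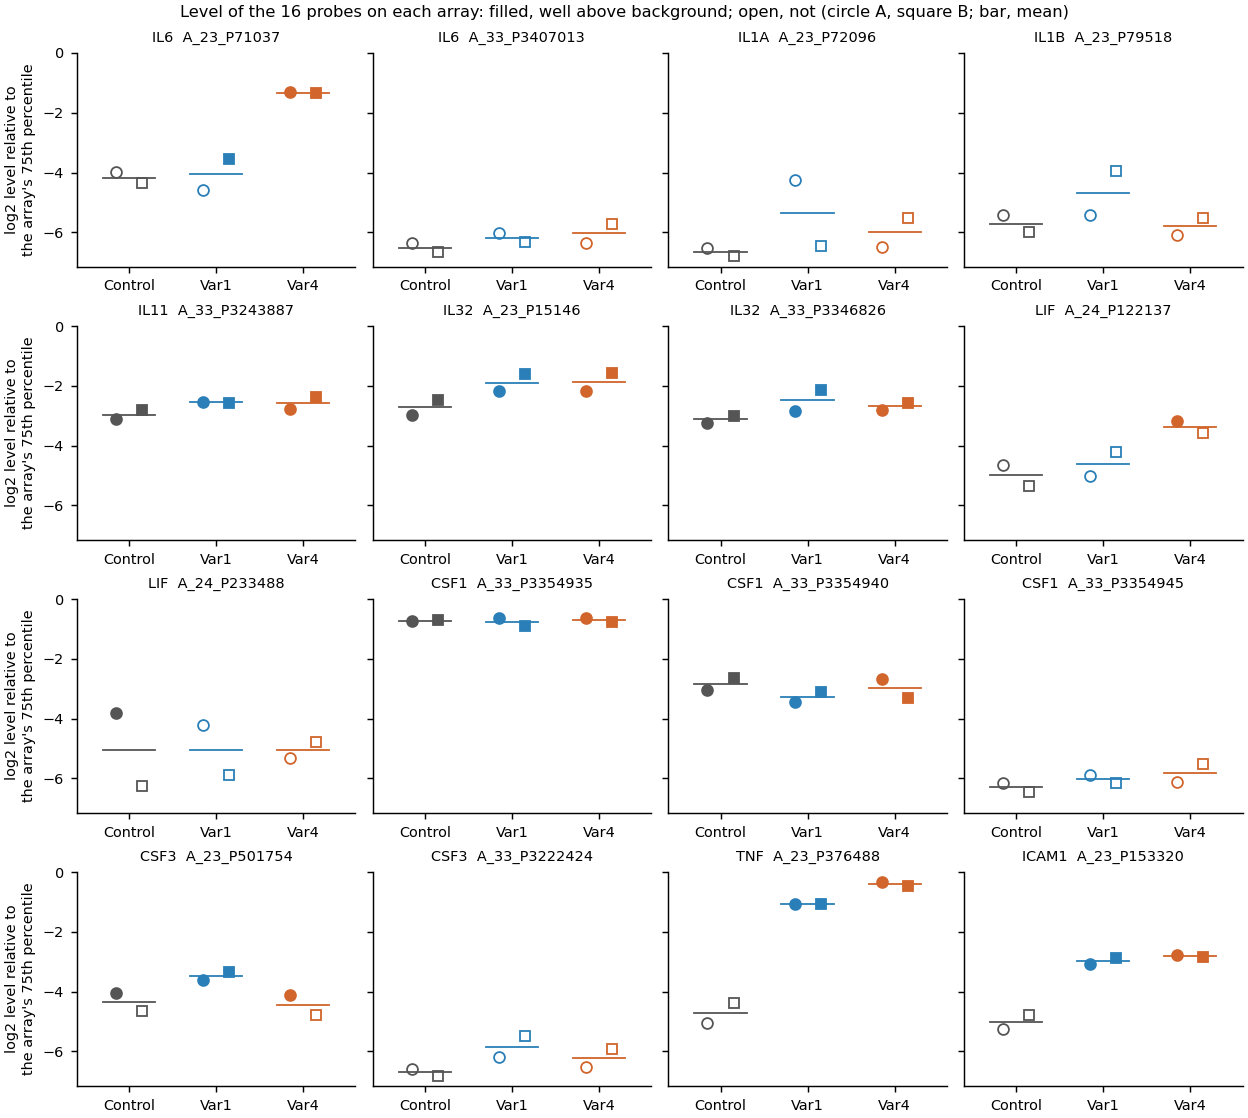
Level of each of the 16 probes on each of the 6 arrays, as log2 intensity relative to the array's 75th percentile (y axis), by group (x axis). Filled symbols were well above background and open ones were not, circles are replicate A and squares replicate B, and bars are group means. TNF and ICAM1 were open in Control and filled in both transfected groups, and the first IL6 probe stood at -1.30 and -1.36 in BT474-Var4 alone.

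In BT474-Var1 against Control cells, 2 of the 9 tested probes (TNF and ICAM1) were called higher and 0 lower by limma, with 3 higher and 0 lower at an unadjusted p under 0.05. Over all tested probes, 14.1% were called higher and 20.4% lower. In BT474-Var4 against Control cells, 3 probes (IL6, TNF and ICAM1) were called higher and 0 lower, again with 3 and 0 at an unadjusted p under 0.05, where 9.87% of all tested probes were higher and 14.3% lower. In BT474-Var4 against BT474-Var1 cells, the probe of IL6 was called higher and 0 probes lower (2 higher and 1 lower at an unadjusted p under 0.05), where 20.5% of all tested probes were higher and 20.8% lower. At an unadjusted p under 0.05 in either direction, 14745, 12766 and 16453 of the 31806 probes passed. The methods' one-way analysis of variance called 2, 2 and 1 of the 9 probes in the 3 comparisons, all higher. In either direction, it called 26.3%, 16.3% and 31.3% of all tested probes. The median log2 difference of the 9 probes was 0.64, 0.44 and 0.07, and that of all tested probes -0.04, -0.08 and -0.04. These counts stand on 9 probes. TNF, ICAM1, IL6 and CSF3 could enter the test only through the groups where they were higher, so nothing is read from the shares.

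**Figure D2:**
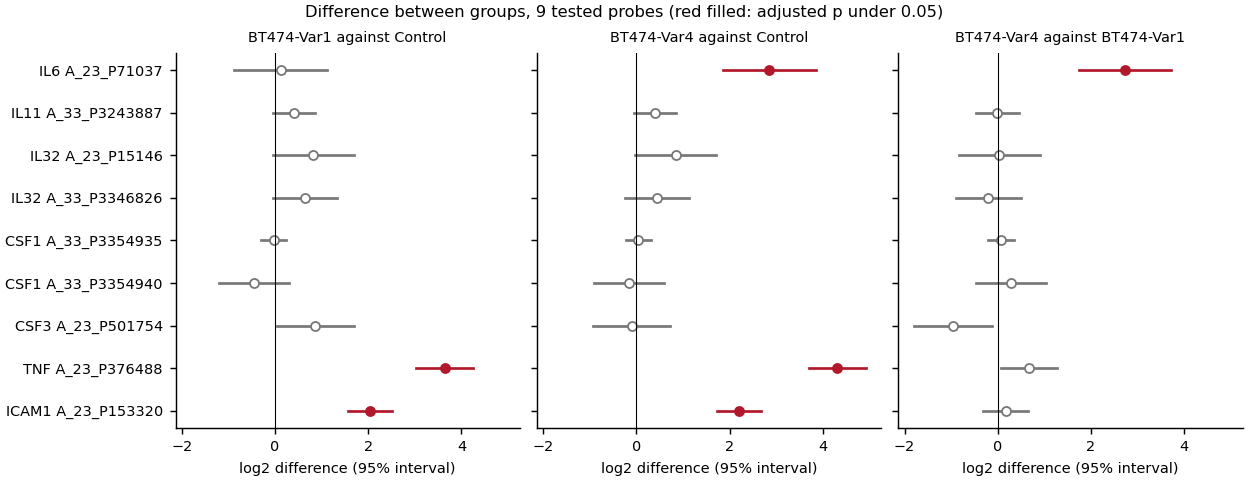
Log2 difference between groups (x axis) for the 9 tested member probes (y axis) in the 3 comparisons, with 95% intervals from limma. Filled red symbols had an adjusted p under 0.05. TNF and ICAM1 were higher than in Control in both transfected groups, and IL6 was higher in BT474-Var4 than in either other group.

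TNF had the largest differences from Control among the 9 tested probes. Its single probe, A_23_P376488 (hg19, chr6:31545837-31545896), read -5.03 and -4.37 in Control, -1.08 and -1.06 in BT474-Var1, and -0.32 and -0.47 in BT474-Var4 cells. Neither Control array was well above background, all 4 others were, and the 3 groups did not overlap. The share of all tested probes whose groups did not overlap was not counted, here or for the probes below. For TNF, BT474-Var1 cells exceeded Control at least 9.49-fold (fitted difference 3.64, SE 0.23, adjusted p = 0.00339 by limma) and BT474-Var4 cells exceeded it at least 15.1-fold (4.30, SE 0.23, adjusted p = 0.00331). These bounds set each Control array at its dimmest spot well above background where TNF lay below it. Both calls held with each array left out in turn (adjusted p of 0.0149 to 0.0298), where the array left alone in a group was assumed to vary like those of the other groups. Between the transfected groups TNF was 1.59-fold higher in BT474-Var4 cells (0.67, 95% interval 0.06 to 1.28), which missed the threshold after adjustment (adjusted p = 0.0789). With only these groups in the fit, the adjusted p of this difference was 0.0162. Leaving out a Control array gave that same fit, since a single Control array adds nothing to the estimate of the spread. Without an array of either transfected group the difference was 0.59 to 0.74.

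ICAM1 was higher in both transfected populations, to a level that differed little between them. Its probe, A_23_P153320 (hg19, chr19:10396298-10396358), is printed at 10 spots of each array, and their mean was -5.26 and -4.78 in Control, -3.09 and -2.88 in BT474-Var1, and -2.79 and -2.85 in BT474-Var4 cells. None of the 10 spots was well above background on either Control array, whereas 10 and 10 were in BT474-Var1 and 10 and 8 in BT474-Var4. For ICAM1, BT474-Var1 cells exceeded Control at least 2.63-fold (fitted difference 2.04, SE 0.18, adjusted p = 0.00476) and BT474-Var4 cells exceeded it at least 2.95-fold (2.20, SE 0.18, adjusted p = 0.00546). The calls held with each array left out, with adjusted p of 0.0166 to 0.0385. BT474-Var4 minus BT474-Var1 was 0.16 (95% interval -0.31 to 0.64, adjusted p = 0.498), an interval that leaves room for a modest difference.

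**Figure D3:**
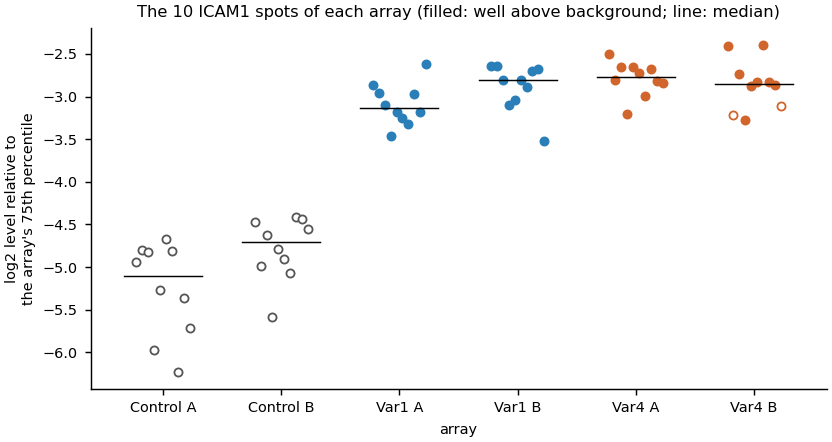
The 10 ICAM1 spots on each of the 6 arrays (x axis), as log2 intensity relative to the array's 75th percentile (y axis), with the median as a line. Filled spots were well above background. The brightest Control spot, at -4.41, lay below the dimmest spot of the 4 other arrays, at -3.52.

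Spots of 1 array share its RNA and were averaged before the test. Their SD within an array was 0.37 and 0.55 in Control and 0.20 to 0.30 in the transfected groups, so the spread between spots was wider where the probe was dim. The lowest spot was at -6.23 in Control and the highest at -2.39 in BT474-Var4 cells.

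IL6, which acts on hepatocytes, lymphocytes and many tumor cells through IL6ST, differed between the 2 transfected populations. Its probe A_23_P71037 (hg19, chr7:22771207-22771266) read -4.00 and -4.36 in Control, -4.59 and -3.53 in BT474-Var1, and -1.30 and -1.36 in BT474-Var4 cells. It was well above background on both BT474-Var4 arrays, on 1 BT474-Var1 array and on neither Control array, and BT474-Var4 did not overlap the other groups. The fitted BT474-Var4 level of IL6 was at least 7.21-fold that of Control (2.85, SE 0.37, 95% interval 1.86 to 3.84, adjusted p = 0.013). This fold is a bound, since neither Control array was well above background. No Control array was raised for this fold, since both lay above the dimmest measured signal of their array. The BT474-Var4 level was also higher than that of BT474-Var1 cells (2.73, SE 0.37, adjusted p = 0.00777), of which only replicate B was well above background. With replicate A raised to the dimmest measured signal of its array, this fold was 5.18. BT474-Var1 minus Control was 0.12 (95% interval -0.88 to 1.11, adjusted p = 0.831). The call against BT474-Var1 held with each array left out (adjusted p of 0.0122 to 0.0407). The call against Control did not: the difference was 3.03 and 2.67 without Control replicate A and B (adjusted p = 0.0629 and 0.0742) and 2.82 and 2.88 without BT474-Var4 replicate A and B (adjusted p = 0.0605 and 0.0631). The second IL6 probe, A_33_P3407013 (hg19, chr7:22769363-22769422), which is upstream of the first and is annotated to a predicted transcript, was not above background on any array, at -6.65 to -5.72, so it gave no difference to set beside that of the first.

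The summed level of markers of fibroblasts, a cell type known to make IL6, was also highest in BT474-Var4 cells, with single markers going different ways. The 6 markers summed to 3.13 and 3.16 in Control, 3.80 and 3.68 in BT474-Var1, and 5.71 and 5.53 in BT474-Var4 cells. COL1A1 made up 68.9% to 81.5% of these sums, and DCN was above background only on the BT474-Var4 arrays, at -1.35 and -1.75, against -5.95 to -4.20 on the other 4. PDGFRB, above background on all 6 arrays, was lowest in BT474-Var4 cells, at -0.47 and -0.59 against -0.37 to -0.08 on the other 4. COL1A2, COL3A1 and LUM, defining markers of fibroblasts, were not above background on any array. The part of other cell types in the IL6 result was not tested beyond these levels.

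The other cytokines that signal through IL6ST gave smaller values. IL11, a cytokine of bone and stromal cells, had 1 probe, A_33_P3243887, above background on all 6 arrays at -3.12 and -2.81 in Control, -2.55 and -2.56 in BT474-Var1, and -2.76 and -2.37 in BT474-Var4. Its differences from Control were 0.41 (95% interval -0.05 to 0.87, adjusted p = 0.136) and 0.40 (-0.06 to 0.86, adjusted p = 0.162). Both transfected groups lay above both Control arrays, and neither difference passed the test. LIF, named for its inhibition of leukemia cells, had 2 probes, of which A_24_P122137 was above background only on BT474-Var4 replicate A, at -3.16, with -3.58 on replicate B, -5.34 to -4.65 in Control and -5.02 and -4.23 in BT474-Var1 cells. The other LIF probe, A_24_P233488, was above background only on Control replicate A, at -3.80, and at -6.27 on replicate B. The 2 LIF probes thus marked different arrays, and neither was tested.

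Of the colony-stimulating factors, CSF1 varied little between arrays on its brightest probe. This probe, A_33_P3354935, lay between -0.89 and -0.63 on all 6 arrays, with differences from Control of -0.03 in BT474-Var1 (95% interval -0.30 to 0.24) and 0.04 in BT474-Var4 cells (-0.23 to 0.31). Its probe A_33_P3354940 lay between -3.46 and -2.63 and was 0.45 lower in BT474-Var1 on the log2 scale than in Control (-0.45, 95% interval -1.20 to 0.31, adjusted p = 0.283), which was not called. The third CSF1 probe, A_33_P3354945, was not above background on any array, at -6.44 to -5.52. The 3 probes are annotated to different CSF1 transcripts.

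CSF3 (G-CSF) was near background. Its probe A_23_P501754 read -4.05 and -4.63 in Control, -3.61 and -3.34 in BT474-Var1, and -4.10 and -4.78 in BT474-Var4 cells. It was above background on both arrays of BT474-Var1 and on 1 array of each other group. The probe thus entered the test only through BT474-Var1, the group where it was highest. BT474-Var1 lay above the other 2 groups, by 0.87 over Control (95% interval 0.03 to 1.70, adjusted p = 0.0984) and over BT474-Var4 cells (BT474-Var4 minus BT474-Var1 -0.97, 95% interval -1.80 to -0.14, adjusted p = 0.0679), and neither difference passed the test. With BT474-Var4 replicate B raised to the dimmest measured signal of its array, the latter fold was 1.30. The second CSF3 probe, A_33_P3222424, was not above background on any array, at -6.83 to -5.48.

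IL32 was above background on all 6 arrays with both probes. A_23_P15146 read -2.97 and -2.47 in Control, -2.18 and -1.61 in BT474-Var1, and -2.18 and -1.57 in BT474-Var4 cells. A_33_P3346826 read -3.23 and -3.00, -2.83 and -2.13, and -2.80 and -2.57 in the same order. On both probes, which share 1 gene and are not independent, the 4 transfected arrays lay above both Control arrays. The differences from Control were 0.82 and 0.64 in BT474-Var1 (adjusted p = 0.122 and 0.128) and 0.85 and 0.44 in BT474-Var4 cells (adjusted p = 0.131 and 0.279), and none was called. Replicates of a group differed by 0.50 to 0.61 on the first probe and by 0.23 to 0.70 on the second, with B above A in every group on both probes. With the replicate letter as a block, A_23_P15146 was called in both comparisons with Control (adjusted p = 0.0172 and 0.0205), as it was with a trend and robust estimation (0.0332 and 0.0349), and without BT474-Var1 replicate A the second probe was called in BT474-Var1 cells (0.99, adjusted p = 0.0405).

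The interleukin-1 genes, whose products are potent activators of NF-kB, were not measured above background. IL1A (A_23_P72096) lay between -6.79 and -5.51 on 5 arrays and at -4.25 on BT474-Var1 replicate A. IL1B (A_23_P79518) lay between -6.08 and -5.41 on 5 arrays and at -3.96 on BT474-Var1 replicate B. Neither gene reached a level well above background in any group, and falls or changes below that level were not detectable here.

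Genes of the same pathways were counted from 4 lists, to be read beside the shares over all tested probes in the same 3 comparisons, which were 14.1% higher and 20.4% lower, 9.87% and 14.3%, and 20.5% and 20.8%, with medians of -0.04, -0.08 and -0.04. The highest adjusted p over the alternatives is given for some list genes only, and calls without it can be as unstable. The calls that stayed with each array left out are named after the last list. Of 24 tested probes for processing and signaling (19 genes), 4 were called higher and 3 lower in BT474-Var1 against Control, 4 and 2 in BT474-Var4 against Control, and 7 and 2 in BT474-Var4 against BT474-Var1 cells, with median log2 differences of -0.01, 0.02 and 0.14. TNFAIP3 (A20), a deubiquitinase that restrains NF-kB, read -3.46 and -3.60 in Control, -0.33 and -0.39 in BT474-Var1, and -0.31 and -0.22 in BT474-Var4 cells. The groups of transfected cells were 8.98-fold (3.17, SE 0.07, adjusted p = 0.00154) and 9.62-fold higher (3.27, SE 0.07, adjusted p = 0.00201). NFKBIA, which holds NF-kB in the cytoplasm, was 1.59-fold (0.67, adjusted p = 0.00469) and 1.91-fold higher (0.93, adjusted p = 0.00376). NFKB1, a subunit of NF-kB, was lower than in Control in both groups (-0.50, adjusted p = 0.00549 for BT474-Var1, and -0.21, adjusted p = 0.044 for BT474-Var4). IRAK1, a kinase of the interleukin-1 receptor, was lower in BT474-Var1 cells on 1 of its 2 probes (-0.44, adjusted p = 0.00907), and the other differed by 0.13 (adjusted p = 0.402). STAT3, which carries the IL6 signal, was higher than in Control in both groups on 1 of its 2 probes, by 0.24 in BT474-Var1 (adjusted p = 0.0316) and 0.28 for BT474-Var4 (adjusted p = 0.029, and up to 0.167 over the alternatives), while the other probe differed by -0.01 and 0.24 (adjusted p = 0.957 and 0.106). JAK1, the kinase upstream of STAT3, was 0.28 higher in BT474-Var4 cells (adjusted p = 0.0364, and up to 0.182 over the alternatives) and -0.20 from Control in BT474-Var1 (adjusted p = 0.0592). SOCS3, an inhibitor of JAK kinases, was 2.59-fold higher in BT474-Var4 cells relative to BT474-Var1 (1.37, adjusted p = 0.036, and up to 0.135 over the alternatives), with 1 of the BT474-Var1 arrays not above background. Against Control, SOCS3 differed by -1.05 in BT474-Var1 (adjusted p = 0.0785) and 0.32 for BT474-Var4 (adjusted p = 0.54), neither called. In BT474-Var4 against BT474-Var1 TRADD, an adaptor of the TNF receptor, was lower (-0.57, adjusted p = 0.00373, with 0.30 and -0.27 against Control, both called), and JAK1 and the ubiquitin ligase TRAF6 were higher by 0.49 and 0.37 (adjusted p = 0.00612 and 0.0372).

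Of 20 tested probes for receptors and binding partners (11 genes), 8 were called higher and 0 lower in BT474-Var1 against Control (9 and 0 at an unadjusted p under 0.05), 2 and 3 in BT474-Var4 against Control, and 3 and 9 in BT474-Var4 against BT474-Var1 cells, with median log2 differences of 0.32, -0.18 and -0.41. IL6ST, the chain shared by the receptors of IL6, IL11 and LIF, held 7 of these probes, of which 6 were higher in BT474-Var1 cells than in Control, and 6 lower in BT474-Var4 cells than in BT474-Var1. Its differences ranged from 0.27 to 0.99 and from -1.30 to -0.37 over the 7 probes, which share 1 gene and are not independent. IL11RA, the IL11 receptor, read -0.55 and -0.63 in Control, 0.10 and 0.09 in BT474-Var1, and -1.24 and -0.94 in BT474-Var4 cells. It thus differed from Control by 0.69 (adjusted p = 0.0141, BT474-Var1) and -0.50 (adjusted p = 0.0397, BT474-Var4), and 2.28-fold lower in BT474-Var4 cells relative to BT474-Var1 (adjusted p = 0.00339). LIFR, the LIF receptor, was 1.61-fold lower in that comparison (adjusted p = 0.029). IL1RN, the antagonist of the interleukin-1 receptor, was higher in both groups on 1 of its 2 probes, by 0.38 (adjusted p = 0.013, BT474-Var1) and 0.80 (adjusted p = 0.00494, BT474-Var4). The other IL1RN probe was not called, with 0.46 and 0.41 (adjusted p = 0.135 and 0.185). The receptor IL1R1 was lower in BT474-Var4 cells on 1 of its 2 probes (-0.50, adjusted p = 0.0259), and the other differed by -0.71 (adjusted p = 0.111). ITGB2, a chain of both integrins that bind ICAM1, in BT474-Var4 cells exceeded Control 2.06-fold (adjusted p = 0.028, and up to 0.105 over the alternatives) and BT474-Var1 2.14-fold (adjusted p = 0.0151, and up to 0.0648).

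**Figure D4:**
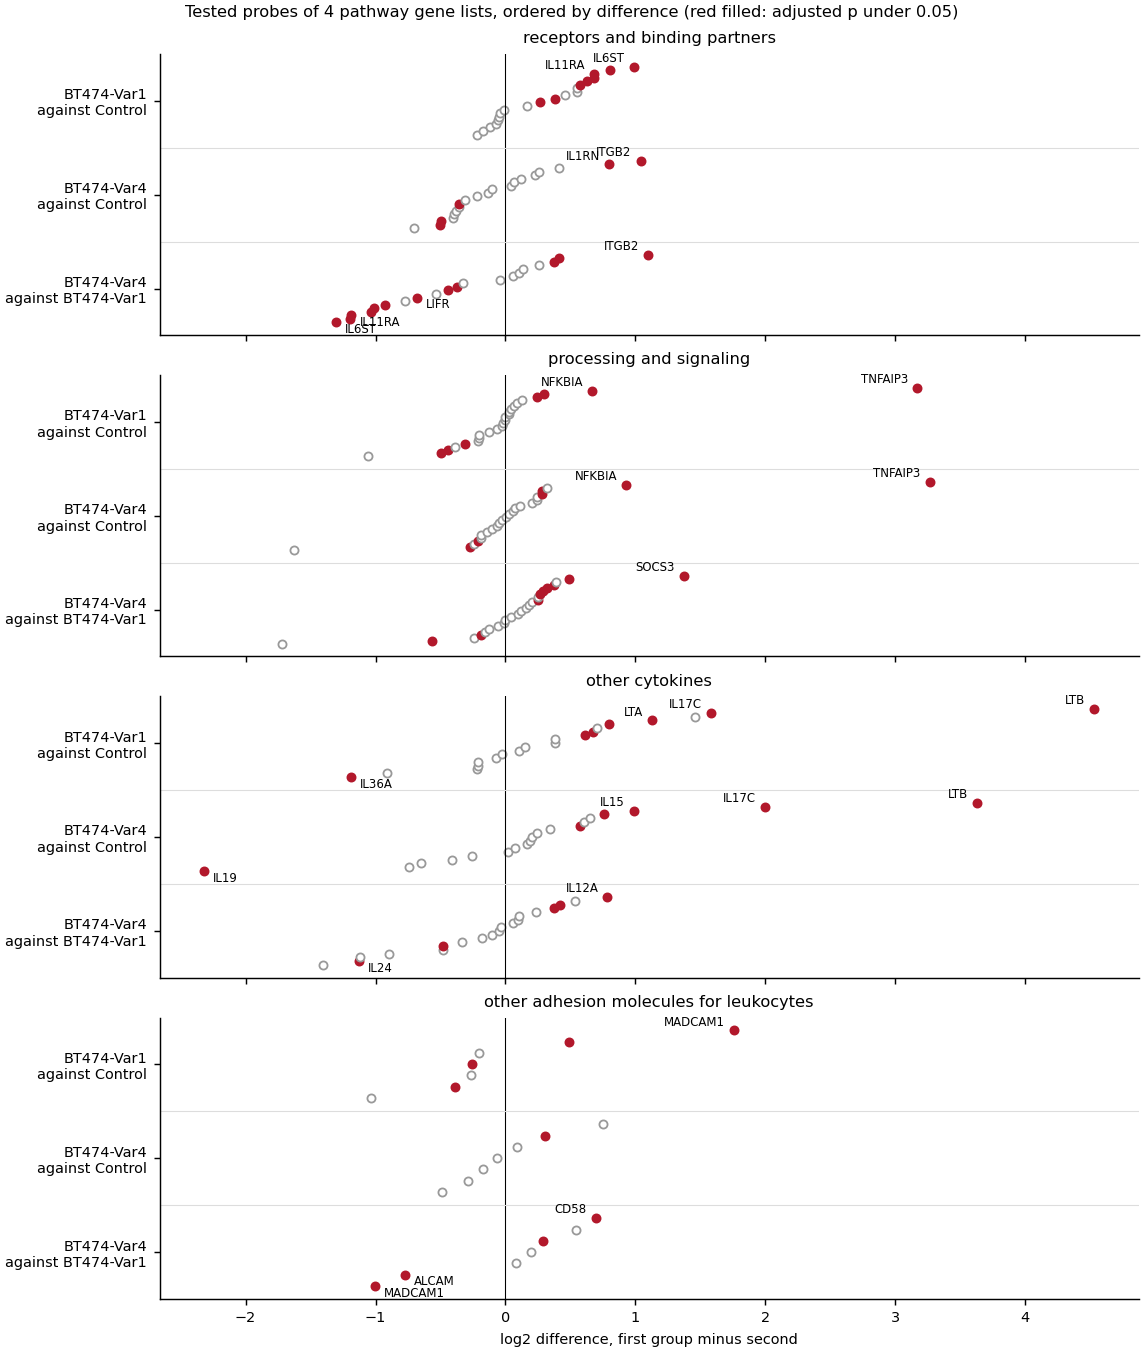
Log2 difference (x axis) of every tested probe of the 4 gene lists in the 3 comparisons (rows), ordered by difference within a row. Filled red symbols had an adjusted p under 0.05, and names are given for the called genes named in the text that differed by 0.6 or more. TNFAIP3 stood at 3.17 and 3.27 and LTB at 4.53 and 3.63 against Control.

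Of 19 tested probes of other cytokines (18 genes), 6 were called higher and 1 lower in BT474-Var1 against Control, 5 and 1 in BT474-Var4 against Control, and 3 and 2 in BT474-Var4 against BT474-Var1 cells, with median log2 differences of 0.38, 0.21 and -0.05. LTB and LTA (lymphotoxin beta and alpha) are relatives of TNF that lie beside it, and their probes are on chr6:31548335-31548394 and chr6:31541154-31541213 (hg19). LTB read -5.93 and -5.02 in Control, where it was not above background, -1.05 and -0.84 in BT474-Var1, and -1.87 and -1.83 in BT474-Var4 cells. Over Control this was at least 10.8-fold for BT474-Var1 cells (adjusted p = 0.00374), and for BT474-Var4 cells at least 5.80-fold (adjusted p = 0.00582). LTA, not above background in Control and BT474-Var4 cells, exceeded Control at least 2.04-fold in BT474-Var1 (adjusted p = 0.0308, and up to 0.126 over the alternatives). IL17C, a cytokine of epithelial cells, was 2.99-fold (adjusted p = 0.00293) and 3.98-fold higher (adjusted p = 0.00261) and differed by 0.42 between the transfected groups (adjusted p = 0.0206). IL15, a growth factor of natural killer and T cells, exceeded Control in both groups, 1.53-fold for BT474-Var1 (adjusted p = 0.00825) and 1.98-fold for BT474-Var4 (adjusted p = 0.00529). Lower than in Control were IL36A, of the interleukin-1 family, at least 1.84-fold in BT474-Var1 (adjusted p = 0.00978), and IL19, of the IL10 family, in BT474-Var4 cells at least 2.35-fold (adjusted p = 0.0345, and up to 0.139 over the alternatives). Between the transfected groups, IL24 was at least 1.47-fold lower (adjusted p = 0.0453), IL18 1.40-fold lower (adjusted p = 0.00793) and IL12A 1.72-fold higher (adjusted p = 0.0112) in BT474-Var4 cells. The IL24 difference was called under 5 of 14 alternatives. IL18 was also 0.67 above Control in BT474-Var1 (adjusted p = 0.00545), and IL12A 0.57 above it in BT474-Var4 (adjusted p = 0.0384). In the group for which no change was named above, IL36A differed from Control by -0.65 (adjusted p = 0.0528) and IL19 by -0.92 (adjusted p = 0.213).

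Of 7 tested probes of other adhesion molecules for leukocytes (5 genes), 2 were called higher and 2 lower in BT474-Var1 against Control, 1 and 0 in BT474-Var4 against Control (2 and 2 at an unadjusted p under 0.05), and 2 and 2 in BT474-Var4 against BT474-Var1 cells, with median log2 differences of -0.26, -0.07 and 0.20. MADCAM1, a ligand of gut-homing lymphocytes, exceeded Control at least 2.57-fold in BT474-Var1 (adjusted p = 0.0118, and up to 0.0577 over the alternatives) and lower in BT474-Var4 cells relative to BT474-Var1 (-1.01, adjusted p = 0.0401). BT474-Var4 replicate B was not above background there, and with it raised to the dimmest measured signal of its array the fold was 1.68. MADCAM1 differed from Control by 0.75 in BT474-Var4 (adjusted p = 0.109). ALCAM, a ligand of CD6 on T cells, was 0.49 above Control in BT474-Var1 cells (adjusted p = 0.014) and 0.78 lower in BT474-Var4 cells relative to BT474-Var1 (-0.78, adjusted p = 0.00401). CD58, the ligand of CD2, differed from Control on 1 of its 2 probes by -0.39 (adjusted p = 0.0102, BT474-Var1) and 0.30 (adjusted p = 0.0254, BT474-Var4), with a level 1.62-fold higher in BT474-Var4 cells relative to BT474-Var1 (adjusted p = 0.00252). The other CD58 probe was not called, with -1.03 and -0.49 against Control (adjusted p = 0.138 and 0.455) and 0.55 between the transfected groups, so the probes differed in sign for BT474-Var4 against Control. ICAM3 was lower in BT474-Var1 cells by 1.19-fold (adjusted p = 0.0318). F11R, a junction protein that binds LFA-1, was 1.22-fold higher in BT474-Var4 cells relative to BT474-Var1 on 1 of its 2 probes (adjusted p = 0.0254). The other F11R probe differed by 0.20 (adjusted p = 0.0953). Of the 44 differences that the rule named in the 4 lists, 17 stayed called with each of the 6 arrays left out in turn, those of TNFAIP3, NFKBIA, LTB and IL17C against Control in both transfected groups, of NFKB1 against Control in BT474-Var1, of IL15 and IL1RN against Control in BT474-Var4, and of ALCAM, CD58, TRADD, JAK1, IL18 and IL11RA between the transfected groups. The rest of the 44 lost the call without at least 1 array, with adjusted p over all alternatives of up to 0.182, and of up to 0.578 for IL12A.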

How the data were processed

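Cy3-labeled RNA of BT474 cells was measured on Agilent arrays of 1 color, 2 per group. The authors quantified spots with Feature Extraction 11.5.1.1, so the deposited files hold background-subtracted and detrended intensities on a linear scale, not normalized between arrays, and they deposited log2 values shifted to the 75th percentile in GeneSpring. The file headers name another array design than the methods and place probes on hg19. Outlier spots were left out, log2 intensities were averaged per probe, and the 75th percentile of each array's probes was subtracted, which gave the deposited values within a median of 0.00716. limma 3.58.1 (R 4.3.3) took the group as the only term over 6 arrays with 3 residual degrees of freedom, on probes with a value on every array, and p was adjusted by Benjamini-Hochberg. The number of arrays limits the precision. The members, lists and motifs were chosen with earlier results of these data known. The lists' named genes were at most the 4 with the largest change among called probes per list and comparison. The rule's comparison of member patterns with other genes applied to 0 probes, since no member probe above background on all 6 arrays was called. The letters A and B of the arrays pair nothing in the labels. The fit was tested on simulated data. Alternatives were normexp correction (offset 50), quantile normalization, the deposited table, no filter on dim probes or one on all 6 arrays, the replicate block, a trend with robust estimation, only the groups compared, the methods' analysis of variance, and each array left out.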

Additional observations from a re-analysis of the deposited data

Results flagged for a closer look

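IL6 differed between the 2 transfected populations in a direct test: on probe A_23_P71037 BT474-Var4 minus BT474-Var1 was 2.73 on the log2 scale (95% interval 1.74 to 3.73, limma adjusted p = 0.00777). Both BT474-Var4 arrays lay above both BT474-Var1 arrays, of which 1 was above background.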

How the results depend on the processing

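Against Control, BT474-Var1 cells had 2 member probes called, BT474-Var4 cells 3, and 1 was called between the transfected groups, the order kept below. A filter on all 6 arrays gave 0, 0 and 0, since it left out TNF, ICAM1 and IL6. Normexp correction gave 5 for the first (with IL32 on both probes and CSF3 added) and 3 for the last (with TNF higher and CSF3 lower). It also called more of all tested probes, 46% and 57.6% in these comparisons against 34.4% and 41.2% in the main fit. A trend with robust estimation gave 3, 4 and 2, with IL32 A_23_P15146 added in both comparisons with Control and TNF in the last, and a fit of only the groups compared gave 2 for the last, with TNF added. Of all tested probes, the trend with robust estimation called 43.9%, 35.9% and 49.5%. The fit of only the groups compared called 33.6% of them in the last comparison. With each array left out, the counts were 2 to 3, 2 to 3 and 1 to 2. Under normexp correction, whose offset exceeds the intensities of most members, the differences from Control of TNF shrank to 0.79 and 1.09, those of ICAM1 to 0.28 and 0.24, and that of IL6 in BT474-Var4 to 0.67, and the 5 calls stayed. TNF and ICAM1 against Control were called under all 14 alternatives that tested them, and IL6 in BT474-Var4 against Control under 8 of 14, with adjusted p of 0.0633 without the filter on dim probes and 0.0505 by analysis of variance. Without that filter the 7 untested member probes had adjusted p of 0.134 to 0.997. The 14 alternatives are not all separate. Leaving out either array of the group outside a comparison gave the same fit as using only the groups compared. Those alternatives are thus 1 analysis counted repeatedly. Over all probes, 10953, 7701 and 13108 were called, against 2669, 720 and 5117 without the filter, 4901 for the second with the replicate block, and as few as 4171, 1510 and 8089 with an array left out.

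Over all tested probes, the differences between letters A and B hardly correlated between groups (-0.0154 to 0.0451). On both IL32 probes, however, B lay above A in every group. With the replicate block the counts were 3, 4 and 1, with IL32 A_23_P15146 added in both comparisons with Control. The block called 27.5%, 15.4% and 35% of all tested probes.

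Signs turned only in differences that were not called. These were IL6 in BT474-Var1 against Control (-0.10 under quantile normalization, -0.41 to 0.65 with an array left out), CSF1 A_33_P3354935 (0.03 under normexp and -0.15 to 0.09 in the same comparison, -0.02 to 0.10 in BT474-Var4 against Control, -0.05 to 0.19 in BT474-Var4 against BT474-Var1), CSF1 A_33_P3354940 (-0.49 to 0.16 in BT474-Var4 against Control, -0.04 under normexp and -0.04 to 0.61 in BT474-Var4 against BT474-Var1) and CSF3 in BT474-Var4 against Control (0.14 under quantile normalization, -0.44 to 0.24). In BT474-Var4 against BT474-Var1 they were IL32 A_23_P15146 (-0.06 under normexp, -0.28 to 0.33), IL32 A_33_P3346826 (0.03 under quantile normalization, -0.55 to 0.15), ICAM1 (-0.04 under normexp) and IL11 (0.22 under quantile normalization, -0.20 to 0.18). The cause was not tested.

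For the genes of the lists, the same alternatives were chosen after seeing the data, and 15 of the 44 named differences were called under all of them.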
